A study of Homo sapiens with 60 samples.

Results

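SR proteins, hnRNPs and the kinases of SR proteins form the core of the machinery that chooses which exons a human cell joins. Here 45 such genes were followed by mRNA sequencing in HT29 cells, an established line from a colorectal adenocarcinoma, after 24 h with plant extracts. The members were taken by gene symbol from the 60675 Ensembl genes of the deposited table, and all 45 were found. They comprise 13 SR proteins (SRSF1 to SRSF11, TRA2A and TRA2B), 6 SR protein kinases (CLK1 to CLK4, SRPK1 and SRPK2), 20 hnRNPs (with PTBP1 and PTBP3 counted among them), and 6 nuclear speckle scaffolds and RBM proteins (SON, SRRM1, SRRM2, RBM39, RBM25 and RBM5). The cells had received a water extract of Cinnamomi Cortex (cinnamon bark), Astragali Radix (astragalus root), Cnidii Rhizoma, Rehmanniae Radix Preparata or Paeoniae Radix, or of the formulae Sagunja-tang or Samul-tang, each at a nominal 500, 100 or 20 µg/mL, or dimethyl sulfoxide as the vehicle. The sample labels give the vehicle as 0.1% and the design text of the series as 2%. The design text also allows lower doses for extracts that inhibited the cells below the top dose, so the doses here are those of the sample labels. Each of 18 treated groups and the vehicle had 3 libraries, and Paeoniae Radix had 1 library per dose. Whether the 3 replicates of a group were grown separately is not stated, and p-values therefore cover only library-to-library spread, part of which may be technical. All groups are of this 1 line, and the labels give no genetic change.

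SR proteins carry RNA-binding domains and a tail rich in arginine and serine. They bind exonic enhancers and recruit the spliceosome, and the CLK and SRPK kinases phosphorylate that tail and so set where SR proteins sit in the nucleus and whether they are active. hnRNPs coat nascent transcripts and often act against SR proteins at the same exon. Many of these genes regulate their own level through poison exons or retained introns, which send part of the transcript to nonsense-mediated decay or hold it in the nucleus. In the annotation used here (GENCODE 29), 37 of the 45 members (82.2%) had at least 1 transcript marked for nonsense-mediated decay, including all 13 SR proteins, against 43.3% of the 12889 protein-coding genes tested. A transcript with a retained intron was annotated for 34 members (75.6%), against 57% of those genes. The values below are counts per gene, so a poison exon or retained intron and a productive transcript were not told apart.

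The 60 libraries held 20459371 to 36253798 counts each, and all 45 members were among the 16357 genes that passed the filter on low counts. Levels are given as CPM, counts scaled to library size with TMM factors. The libraries did not form 1 homogeneous set. The codes of the libraries carry a first number, shared by a pair of extracts, and a round, which is also the replicate number. Cnidii Rhizoma and Rehmanniae Radix Preparata carry the number 5, Cinnamomi Cortex and Astragali Radix 6, and the formulae 7, while the vehicle libraries have codes of their own. On the first principal component (27.0% of the variance), rounds 6-2 and 6-3 and all libraries of number 7 lay on 1 side, and the vehicle, number 5 and round 6-1 on the other, with the exception of Cinnamomi Cortex 500 replicate 2 from round 6-2. Mitochondrial mRNA made up 5.84 to 7.55% of counts in the formulae, against 8.71 to 11.4% in the vehicle, and 6.53 to 10.3% in rounds 6-2 and 6-3, against 8.49 to 10.7% in round 6-1. Of the 12 colorectal epithelial markers, 11 averaged over 1 CPM, with summed levels of 10700 to 13900 CPM over the libraries, whereas fibroblast markers summed to 1.72 to 3.03 CPM. CD3D and MS4A1, markers of T and B cells, were at 0 in every library, while 4 of the 9 leukocyte markers (CD14, CD68, LYZ and ITGAM) averaged over 1 CPM.

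The 3 most abundant members per length were hnRNPs. Per kilobase of the longest coding transcript, HNRNPA2B1 stood at 378.5 ± 13.9 CPM in the vehicle (SD, n = 3), ahead of HNRNPA1 at 281.7 ± 14.1 and HNRNPK at 263.4 ± 14.6. The last 2 lay about 1 SD apart. These 3 proteins bind and shuttle mRNA in large amounts. The kinases lay at the other end. CLK3 had 5.70 ± 0.234 CPM per kilobase, CLK4 had 6.35 ± 0.346 and SRPK2 had 10.1 ± 0.449, while CLK1 reached 29.96 ± 0.696 and SRPK1 35.3 ± 1.56. The place of CLK3 rests on its longest coding transcript, of 10498 bases, against 2026 for CLK1 and 2568 for CLK4. Without division by length CLK3 had 59.8 CPM in the vehicle, against 60.7 for CLK1 and 16.31 for CLK4. Among SR proteins the level per kilobase ran from 13.6 for SRSF8 to 137.5 for SRSF2, with a median of 76.0. Reads of HNRNPA1 and other members with many processed pseudogenes, and of the close pairs HNRNPH1 with HNRNPH2, were divided by estimation, so those levels are uncertain.

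The members held their levels within narrow limits. The ratio of the highest to the lowest of the 19 group means had a median of 1.14 over the 45 members. It was smallest for SON at 1.04 and largest for RBM25 at 1.48 and SRSF11 at 1.35. In none of the comparisons of extract with vehicle did the median log2 fold change of the members leave the range of -0.022 to 0.043, and the all-gene median lay between -0.003 and 0.005. Of the 45 members, 24 were not called against the vehicle in any of 18 comparisons, among them all 4 CLK kinases, SRPK1, HNRNPA1, HNRNPK, PTBP1, SON, SRRM2 and RBM39. Neither the ratios nor this count were taken over all genes, so they do not set the members apart from other genes. The call rests on edgeR's quasi-likelihood test, adjusted over all genes tested, with 0.05 as the limit.

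**Figure D1:**
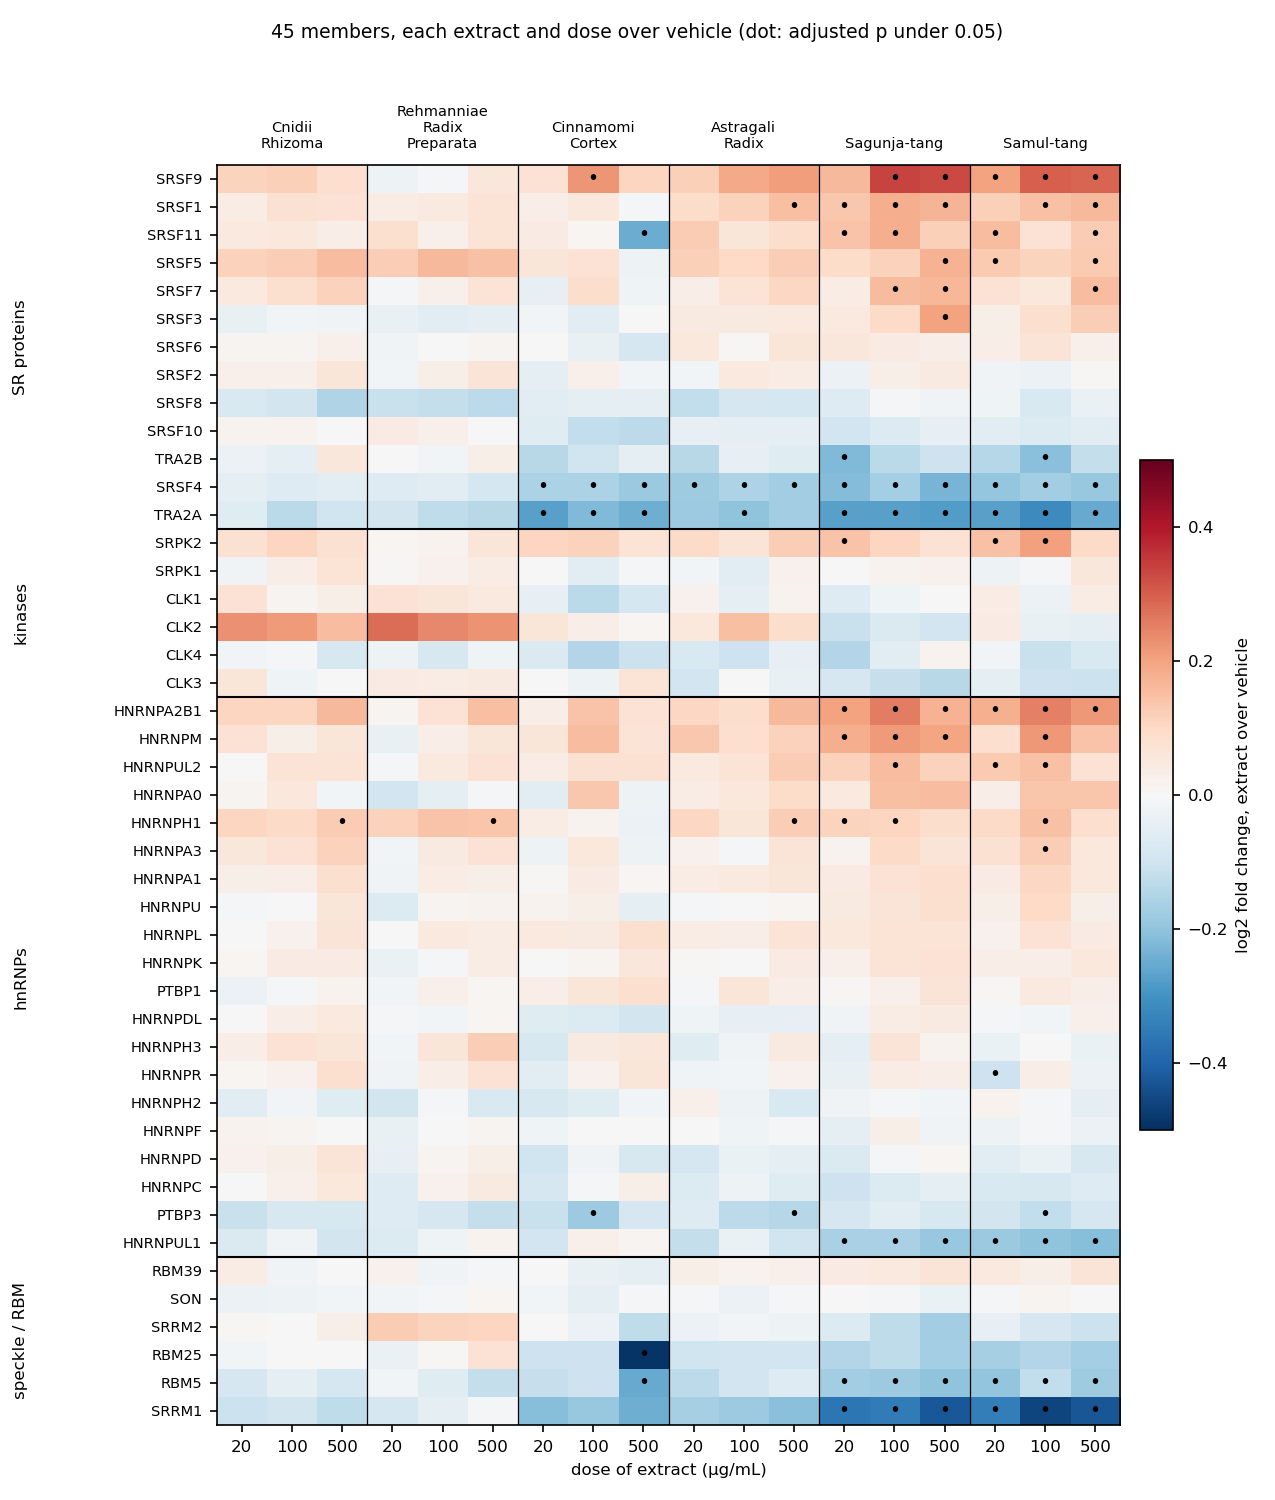
Log2 fold change of each member (rows, grouped by role) in each extract and dose over the vehicle (columns, doses in µg/mL from low to high, 3 libraries per group), with dots where the edgeR adjusted p was under 0.05. RBM25 at the top dose of Cinnamomi Cortex, at -0.49, is the strongest decrease, and the columns of both formulae share a pattern led by SRRM1 downward and SRSF9 upward.

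Cinnamomi Cortex at 500 µg/mL lowered 2 members below their level in every other library, RBM25 and SRSF11. Genes outside the members were not counted in this way. The separation therefore does not set RBM25 and SRSF11 apart from other genes. RBM25, an RNA-binding protein that takes part in splice site choice, lies on chromosome 14 (GRCh38, 73058436 to 73123898, plus strand, ENSG00000119707). SRSF11 encodes an SR protein of nuclear speckles on chromosome 1 (70205682 to 70253052, plus strand; ENSG00000116754). RBM5, an RNA-binding regulator of splicing in apoptosis genes on chromosome 3 (50088908 to 50119021, plus strand; ENSG00000003756), moved with them by a smaller amount. The sequence upstream of each start is given next, since these 3 genes fell in the same comparison. It is taken from RefSeq (GRCh38.p14, plus strand) and runs from 250 bases before the RefSeq start up to the base before the earliest GENCODE start, at chr14:73058284-73058435 for RBM25, chr1:70205446-70205681 for SRSF11 and chr3:50088669-50088907 for RBM5. Capitals mark the CCAAT box, searched as CCAAT on both strands, so that it reads ATTGG on the other strand.
RBM25: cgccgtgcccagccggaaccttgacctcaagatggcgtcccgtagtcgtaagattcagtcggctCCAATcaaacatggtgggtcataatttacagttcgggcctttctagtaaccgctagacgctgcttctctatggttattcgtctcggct
SRSF11: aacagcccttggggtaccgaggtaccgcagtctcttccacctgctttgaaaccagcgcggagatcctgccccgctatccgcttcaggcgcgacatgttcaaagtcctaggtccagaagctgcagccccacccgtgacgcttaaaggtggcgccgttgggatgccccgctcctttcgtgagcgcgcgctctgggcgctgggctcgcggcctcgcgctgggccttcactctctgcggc
RBM5: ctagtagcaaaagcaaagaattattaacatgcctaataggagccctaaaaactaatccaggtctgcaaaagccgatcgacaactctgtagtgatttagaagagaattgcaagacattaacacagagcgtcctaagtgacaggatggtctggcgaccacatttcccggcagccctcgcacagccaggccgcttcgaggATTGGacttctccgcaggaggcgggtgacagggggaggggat

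The RefSeq promoter table held 41 of the 45 members, and SRSF2, TRA2A, HNRNPA1 and RBM39 had no entry. In the 250 bases before the start, the CCAAT box was found for 20 of the 41 members, against 32.0% of 35116 promoters of the same length. An ETS site (CCGGAAGT) was found for 3 members (HNRNPD, SRSF4 and SRSF5), against 3.42% of promoters. The letters of the antioxidant response element core (TGACNNNGC) were found for 6 members, CLK1, HNRNPA2B1, HNRNPF, SRSF1, SRSF5 and TRA2B, against 10.9% of promoters. Both strands were searched, the motifs were not tested for overlap with each other, and a match is a description of letters, not of binding. RBM25 and RBM5 each held the CCAAT box, SRSF11 held none of these motifs in its window, and the cAMP response element (TGACGTCA) and the NRF1 motif were found in no member's window, against 1.65% and 1.03% of promoters.

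RBM25 had 156.2, 129.0 and 117.9 CPM in the replicates of Cinnamomi Cortex at 500 µg/mL, against 186.7, 169.7 and 170.2 CPM at 20 µg/mL. The intermediate dose gave 191.4, 175.8 and 160.2 CPM, and the vehicle 180.5, 193.2 and 192.8 CPM. The groups at 500 and 20 µg/mL did not overlap, and the lowest of the 57 libraries outside the top dose was Cinnamomi Cortex 100 replicate 3 at 160.2 CPM. The log2 fold change of RBM25 was -0.39 ± 0.07 (SE; edgeR adjusted p = 0.00022) for 500 over 20 µg/mL, with a 95% interval from -0.54 to -0.24. Against the vehicle it was -0.49 ± 0.07 (edgeR adjusted p = 3.26e-06). In bulk RNA, less RNA per cell and fewer cells that carry it cannot be told apart.

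SRSF11 had 143.3, 154.8 and 134.5 CPM at the top dose of Cinnamomi Cortex, against 179.8, 173.5 and 175.6 CPM at 20 µg/mL. It had 166.6, 185.2 and 166.5 CPM at 100 µg/mL, and 172.1, 168.8 and 173.3 CPM in the vehicle. The 3 libraries of the top dose were again below all 57 others, of which the lowest had 166.5 CPM. SRSF11 fell by 0.29 on the log2 scale between 20 and 500 µg/mL (SE 0.04, edgeR adjusted p = 6.52e-06) and its difference from the vehicle was -0.25 ± 0.04 (edgeR adjusted p = 7.26e-05).

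RBM5 had 47.76, 49.25 and 44.32 CPM at 500 µg/mL of Cinnamomi Cortex, against 52.34, 52.59 and 50.71 CPM at 20 µg/mL and 55.55, 54.18 and 59.12 CPM in the vehicle. The groups did not overlap, but 9 of the 57 other libraries lay below the highest of the 3. The log2 fold change of RBM5 was -0.14 ± 0.05 over 20 µg/mL (edgeR adjusted p = 0.0436) and -0.25 ± 0.05 over the vehicle (edgeR adjusted p = 7e-05). The call over 20 µg/mL was lost in edgeR with RLE factors (adjusted p = 0.0602), in DESeq2 (adjusted p = 0.0601), with no filter on low counts (adjusted p = 0.323), and without any 1 of the 3 replicates of the extract (adjusted p = 0.0803 to 0.254), whereas RBM25 and SRSF11 kept theirs in all 8 alternatives. RBM5 overlaps RBM6, another RNA-binding protein gene. Without TMM factors, RBM6 had 49.5 to 53.4 CPM at 500 µg/mL and 53.1 to 61.2 CPM at 20 µg/mL.

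**Figure D2:**
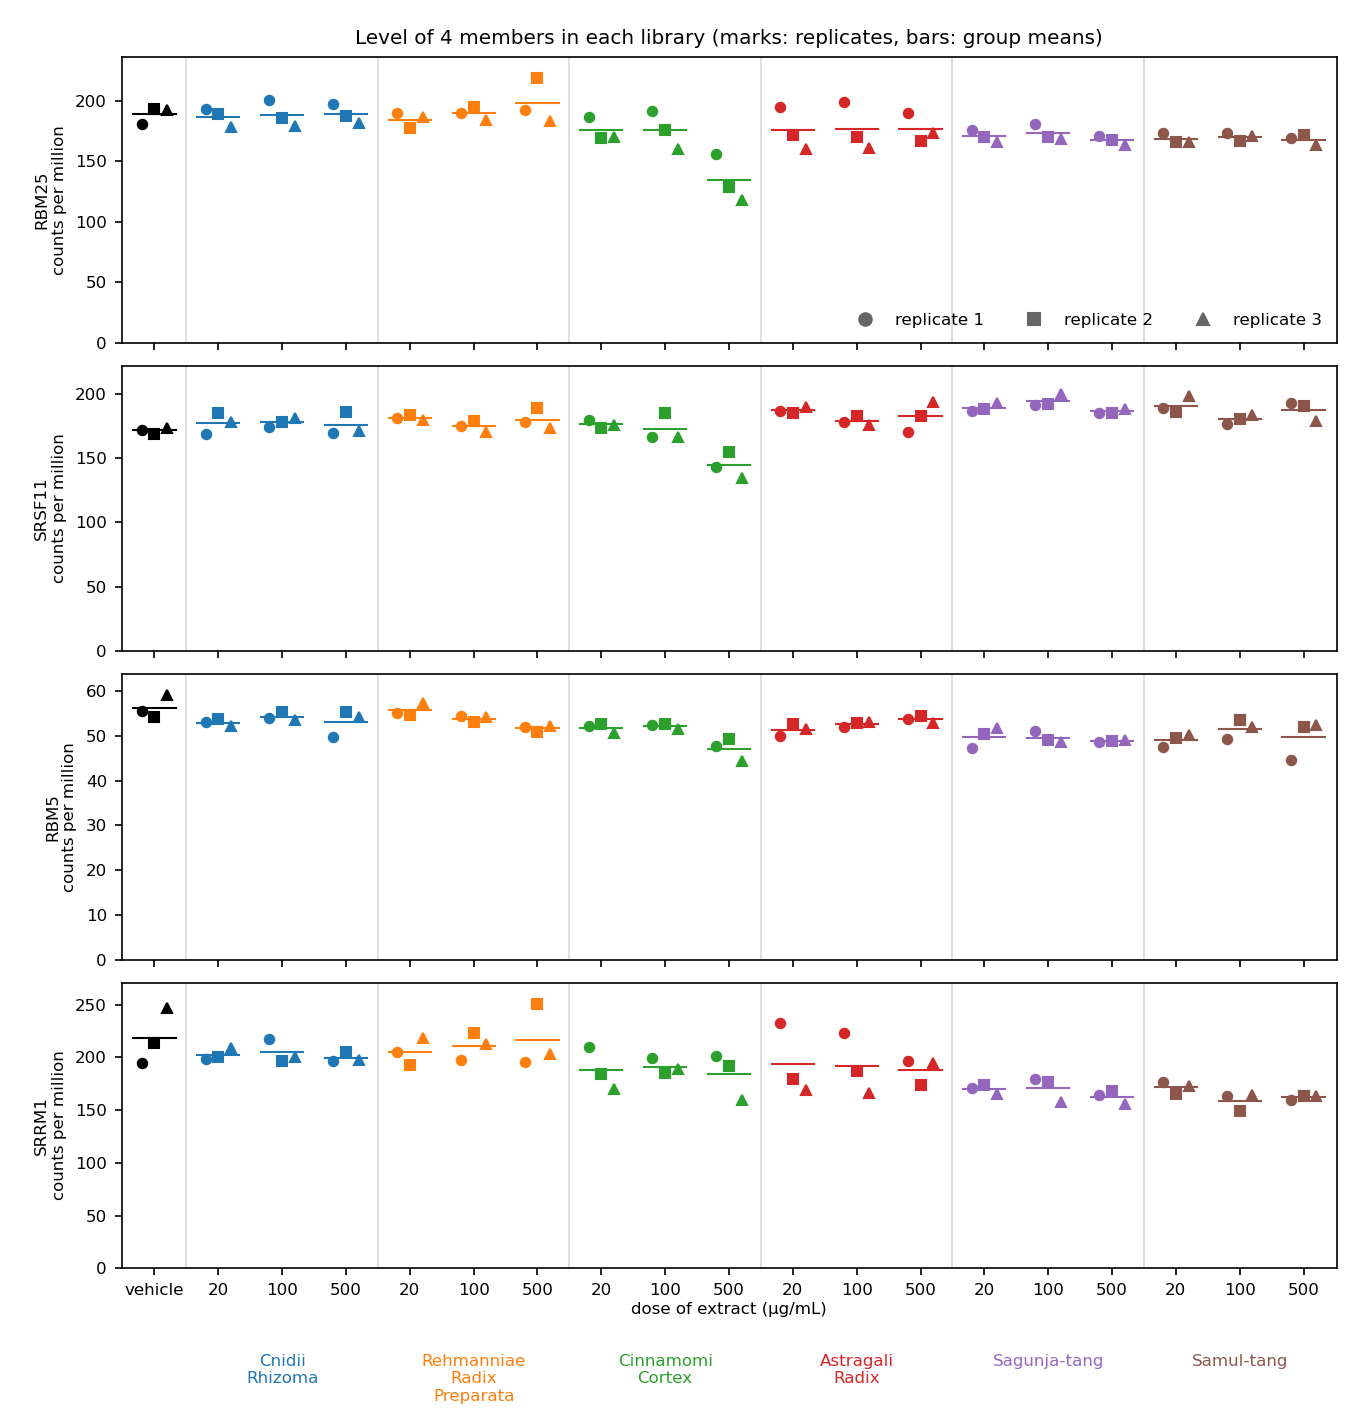
CPM of RBM25, SRSF11, RBM5 and SRRM1 in each library (y axes from 0; x axis: vehicle, then the doses of each extract in µg/mL from low to high; marks show replicates 1 to 3 and bars group means). At the top dose of Cinnamomi Cortex RBM25 lies at 117.9 to 156.2 CPM and SRSF11 at 134.5 to 154.8 CPM, and SRRM1 is lowest in both formulae, at 148.8 to 179.0 CPM.

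Over all members, Cinnamomi Cortex at 500 over 20 µg/mL gave 2 calls upward and 3 downward (11.1% of 45 members), in a comparison in which 10.2% of all genes tested were called, 4.61% higher and 5.61% lower. The median log2 fold change was 0.007 for the members and 0.000 for all genes. The median size regardless of sign was 0.042 for members, against 0.118 for all genes. Besides the 3 decreases, HNRNPR had 315.4, 312.7 and 325.2 CPM at 500 µg/mL against 295.5, 291.3 and 293.5 CPM at 20 µg/mL (log2 0.11 ± 0.03, edgeR adjusted p = 0.0108). HNRNPH3, which binds G-rich stretches, had 176.2, 176.5 and 175.6 CPM against 164.9, 161.8 and 153.4 CPM (log2 0.14 ± 0.05, edgeR adjusted p = 0.0439). The values of each did not overlap between the doses. The call of HNRNPH3 was lost without any 1 of the replicates (adjusted p = 0.085 to 0.258), and that of HNRNPR without replicate 2 (adjusted p = 0.0512) or replicate 3 (adjusted p = 0.125). With no filter on low counts neither was called (adjusted p = 0.142 for HNRNPH3 and 0.274 for HNRNPR).

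The panel of 14 members named in every case had no call in the same fit. CLK1, the kinase whose own transcript keeps introns in many cells, had 59.52, 61.30 and 50.26 CPM at 500 µg/mL, against 62.27, 57.45 and 57.04 CPM at 20 µg/mL. Its log2 fold change was -0.04, with a 95% interval from -0.16 to 0.07. CLK4 had 15.42, 16.23 and 13.60 CPM against 16, 15.34 and 15.25 CPM, with an interval from -0.18 to 0.11. The low and the high dose overlapped for both kinases. Among SR proteins the log2 fold changes were -0.04 for SRSF1, 0.01 for SRSF3, -0.08 for SRSF5, -0.09 for SRSF6, 0.02 for SRSF7 and 0.03 for TRA2A. HNRNPA1 stood at 0.00, HNRNPH1 at -0.06 and HNRNPDL at -0.03. RBM39 stood at -0.04, SON at 0.01 and SRRM2, the large scaffold of nuclear speckles, at -0.12. The interval of 42 of the 45 members lay within 0.25 of 0 on either side.

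**Figure D3:**
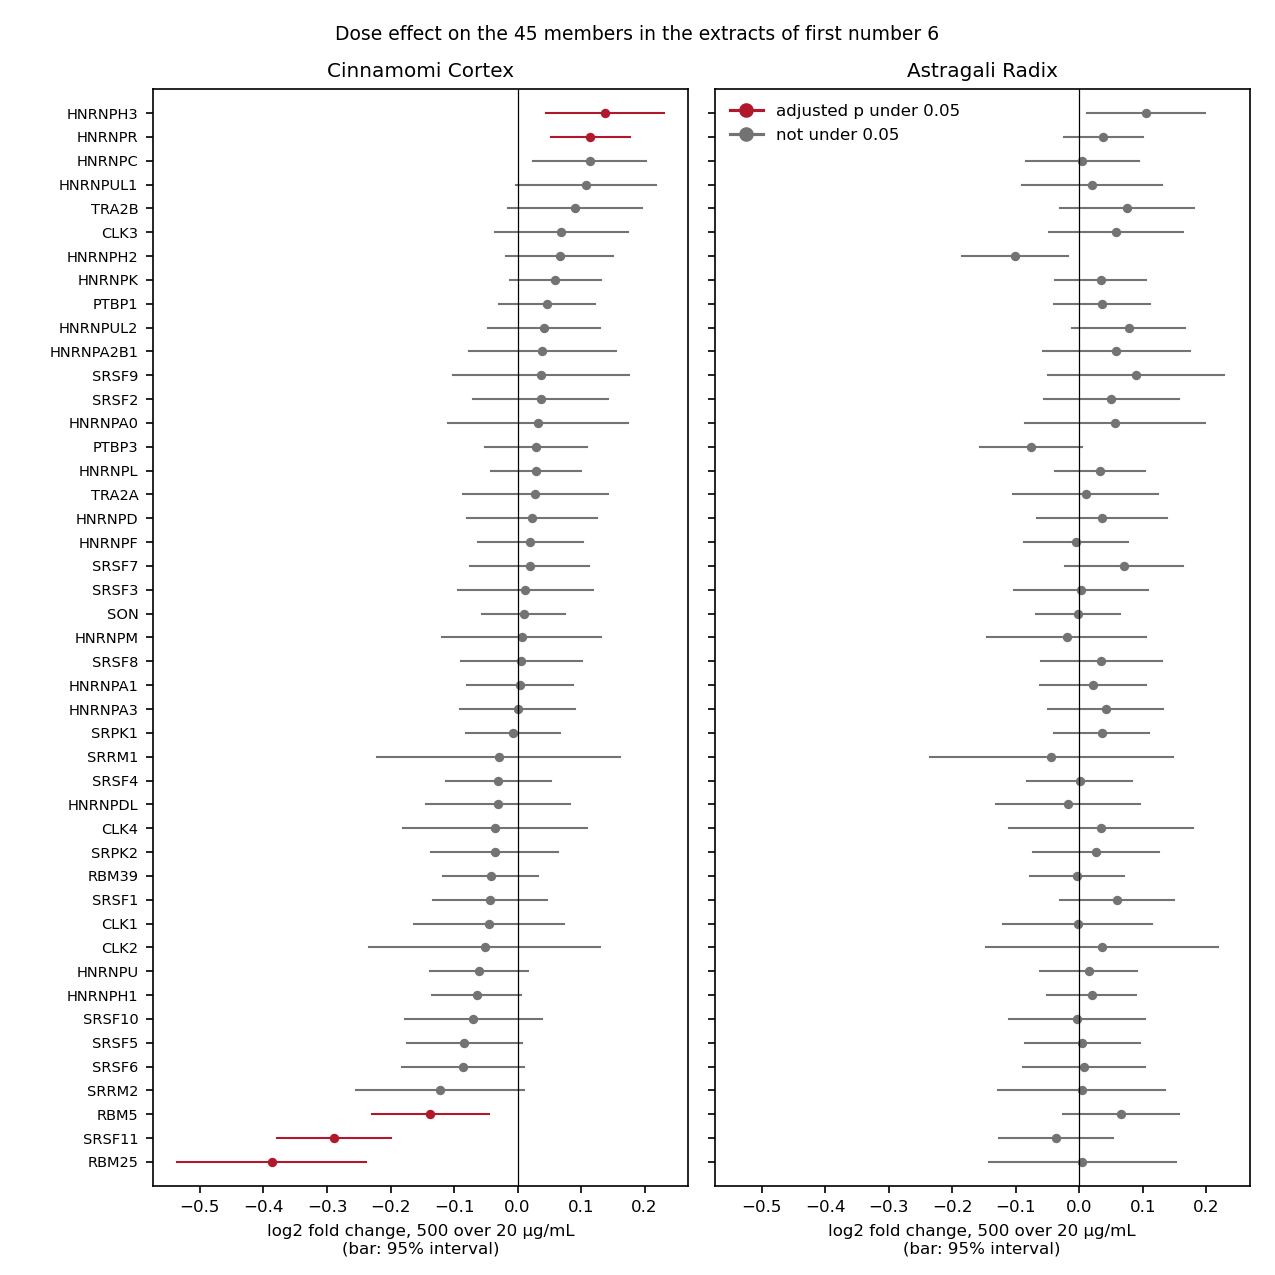
Log2 fold change of the 45 members for 500 over 20 µg/mL with 95% intervals (x axis) in Cinnamomi Cortex (left) and Astragali Radix (right), ordered by the value in Cinnamomi Cortex and coloured where the edgeR adjusted p was under 0.05. RBM25 and SRSF11 lie at -0.39 and -0.29 in Cinnamomi Cortex, against 0.01 and -0.04 in Astragali Radix.

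Astragali Radix libraries share the number 6 and the rounds with those of Cinnamomi Cortex, so that both extracts could be set against each other without the vehicle. RBM25 had 156.2, 129.0 and 117.9 CPM in Cinnamomi Cortex at 500 µg/mL, against 189.8, 166.8 and 173.3 CPM in Astragali Radix at 500 µg/mL. SRSF11 had 143.3, 154.8 and 134.5 CPM in Cinnamomi Cortex, against 170.4, 183.0 and 193.8 CPM in Astragali Radix. Neither gene's values overlapped between the extracts. In all, 7 of 45 members were lower in Cinnamomi Cortex and 0 higher, where 10.8% of all genes were called, 4.98% higher and 5.83% lower, and the median was -0.051 for members and -0.008 for all genes. RBM25 (-0.40 ± 0.07, edgeR adjusted p = 0.000129), SRSF11 (-0.34 ± 0.04, edgeR adjusted p = 2.09e-07) and RBM5 (-0.19 ± 0.05, edgeR adjusted p = 0.00364) led. SRSF1, SRSF5, SRSF6 and HNRNPH1 followed at -0.16 to -0.14. The count was 4 without replicate 1 or 2 of both extracts, and 2 without replicate 3 or with no filter on low counts. RBM25 and SRSF11 were called in all 8 alternatives, SRSF1 in 4 and SRSF5 in 3.

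The difference between the dose effects of both extracts was tested directly. It was called for 2 members, RBM25 and SRSF11, where 2.57% of all genes were called, 1.12% higher and 1.44% lower, with a median of -0.025 for members and 0.001 for all genes. RBM25 changed by -0.39 in Cinnamomi Cortex and by 0.01 in Astragali Radix, a difference of -0.39 ± 0.10 (edgeR adjusted p = 0.0238). SRSF11 changed by -0.29 and by -0.04 in the same order, a difference of -0.25 ± 0.06 (edgeR adjusted p = 0.0138). Leaving out Cinnamomi Cortex 500 replicate 2 alone ended the call of RBM25 (-0.37, adjusted p = 0.0676). Without replicate 3 of both extracts the differences were -0.28 for RBM25 (adjusted p = 0.28) and -0.17 for SRSF11 (adjusted p = 0.321), and no member was then called. The difference for RBM25 was also not called without replicate 2 of both extracts (adjusted p = 0.114), nor that for SRSF11 without replicate 1 (adjusted p = 0.063) or with no filter on low counts (adjusted p = 0.0785).

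Within rounds, the ratio of 500 to 20 µg/mL of Cinnamomi Cortex was below 1 each time for these genes. For RBM25 the log2 ratio was -0.26 in round 6-1, -0.40 in 6-2 and -0.53 in 6-3. For SRSF11 it was -0.33, -0.16 and -0.38, and for RBM5 -0.13, -0.09 and -0.19. Over the 45 members, 10 were below and 9 above in all 3 rounds of Cinnamomi Cortex. In Astragali Radix, where no member was called, 2 were below and 17 above in all 3 rounds. Log2 ratios were rounded to 2 decimals first, so that 1 rounded to 0 counted as neither, as for SRPK1 in round 6-2 of Cinnamomi Cortex. The same counts were not made over all genes, so these splits are not set apart from those of other genes. In Astragali Radix the log2 ratio of RBM25 was -0.04, -0.04 and 0.11, and that of SRSF11 was -0.13, -0.02 and 0.03. RBM25 also differed between the rounds themselves, by -0.21 ± 0.03 in rounds 6-2 and 6-3 over round 6-1 (edgeR adjusted p = 2.03e-05).

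A list of other genes that encode SR-rich proteins, or are known to keep introns, was read in the same comparisons. Of 31 such genes tested, 11 were lower and 0 higher at 500 over 20 µg/mL of Cinnamomi Cortex, where 5.61% of all genes were lower and 4.61% higher, with a median log2 fold change of -0.084, against 0.000 for all genes. The list was drawn up with results of these libraries known, so its direction is not independent evidence. CCNL2, a cyclin of nuclear speckles, changed by -0.54 ± 0.08 (edgeR adjusted p = 1.18e-06), and SREK1, a splicing regulator with an arginine and serine tail, by -0.46 ± 0.04 (edgeR adjusted p = 5e-11). NKTR, a cyclophilin-related protein with SR repeats, changed by -0.41 ± 0.05 (edgeR adjusted p = 1.77e-08) and RSRP1 by -0.40 ± 0.08 (edgeR adjusted p = 0.000982). In Astragali Radix the same comparison gave 0 calls in the list (edgeR), with log2 fold changes of -0.05 for CCNL2, 0.01 for SREK1, 0.00 for NKTR and 0.06 for RSRP1. The difference between both dose effects was called for 7 of the 31, all lower in Cinnamomi Cortex (1.44% of all genes were lower), among them SREK1 (-0.47 ± 0.06, edgeR adjusted p = 5.06e-07).

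**Figure D4:**
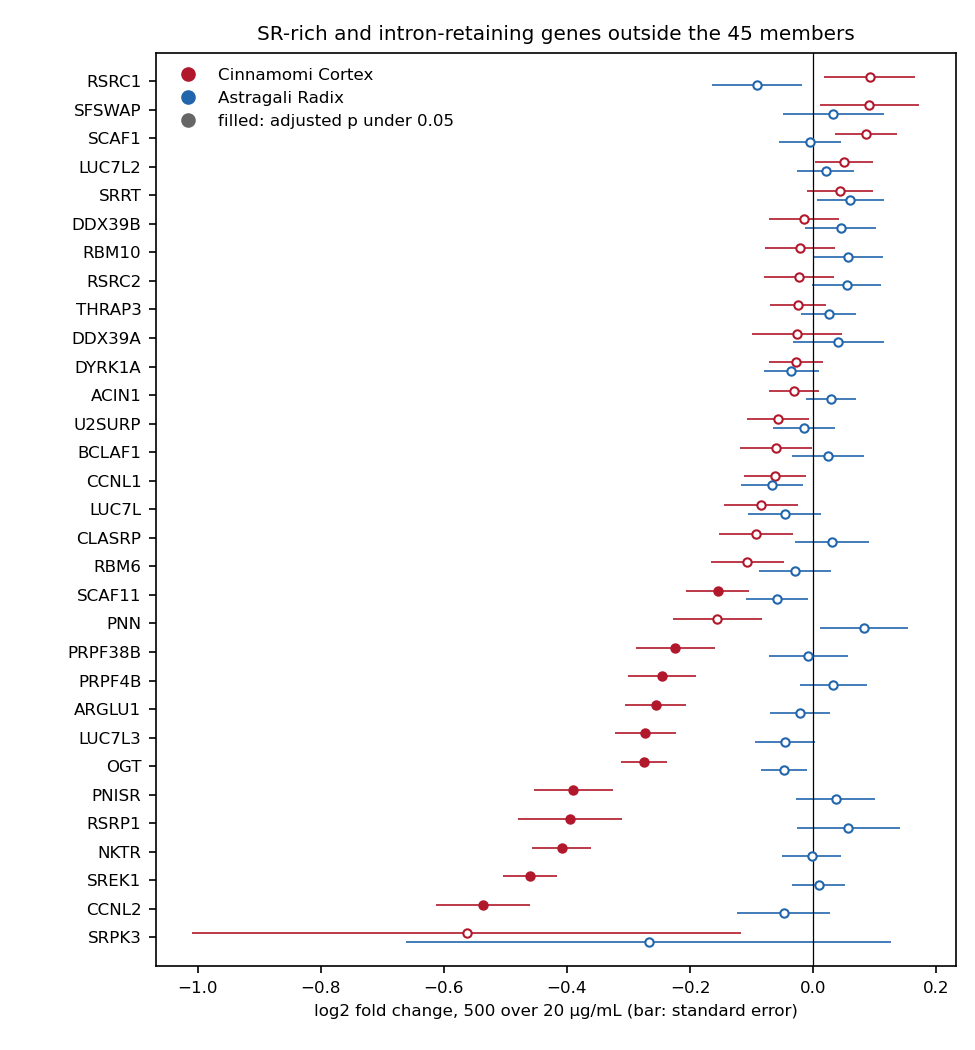
Log2 fold change for 500 over 20 µg/mL (x axis, bars are standard errors) of the 31 other SR-rich and intron-retaining genes tested, in Cinnamomi Cortex (red) and Astragali Radix (blue), filled where the edgeR adjusted p was under 0.05. CCNL2, SREK1, NKTR and RSRP1 lie between -0.54 and -0.40 in Cinnamomi Cortex, SRPK3 has the widest error and was not called, and no gene of the list is filled for Astragali Radix.

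Of 46 core spliceosome genes, 3 were higher and 0 lower at 500 over 20 µg/mL of Cinnamomi Cortex, a share near the 4.61% of all genes called higher, with a median of 0.058. They were SNRPG, a ring protein of the small nuclear ribonucleoproteins (0.21 ± 0.07, edgeR adjusted p = 0.0441), USP39 (0.20 ± 0.05, edgeR adjusted p = 0.00997) and U2AF2, which binds the polypyrimidine tract (0.16 ± 0.04, edgeR adjusted p = 0.0108). Of 40 other RNA-binding splicing regulators, 2 were higher and 3 lower, near the 10.2% of all genes called. TIA1, a U-rich element binder, changed by -0.30 ± 0.05 (edgeR adjusted p = 4.54e-05) and DDX17, an RNA helicase, by -0.15 ± 0.03 (edgeR adjusted p = 0.000878), while HNRNPAB rose by 0.13. Of 21 factors of nonsense-mediated decay, 3 were lower and 0 higher, against 5.61% and 4.61% of all genes, namely UPF3B (-0.42 ± 0.07, edgeR adjusted p = 7.8e-05), SMG1 at -0.20 and UPF3A at -0.18.

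The nuclear noncoding RNAs NEAT1, the scaffold of paraspeckles, and MALAT1, which resides in nuclear speckles, went opposite ways. NEAT1 had 215 to 239 CPM at 500 µg/mL of Cinnamomi Cortex, against 301 to 341 CPM at 20 µg/mL (log2 -0.47 ± 0.10, edgeR adjusted p = 0.000436). MALAT1 had 669 to 767 CPM, against 558 to 681 CPM, with overlap (log2 0.27 ± 0.08, edgeR adjusted p = 0.0305). Epithelial markers also moved in this comparison, with KRT20 at 0.58 ± 0.07 (edgeR adjusted p = 7.63e-08) and CEACAM5 at 0.67 ± 0.12 (edgeR adjusted p = 7.79e-05). CD14, a leukocyte marker, stood at -0.42 and TEK, an endothelial marker that averaged under 1 CPM, at -1.55, both called. The summed levels of the lists overlapped between 500 and 20 µg/mL, with 12000 to 13900 and 11600 to 13500 CPM for epithelial markers, 1340 to 1450 and 1300 to 1420 CPM for leukocyte markers, 28.4 to 30.4 and 25.4 to 31.3 CPM for endothelial markers, 356 to 450 and 359 to 417 CPM for hepatocyte markers, and 2.04 to 2.51 and 2.22 to 2.56 CPM for fibroblast markers. The part of these markers in the decrease of RBM25 and SRSF11 was not tested.

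Against the vehicle, Cinnamomi Cortex at 500 µg/mL lowered 5 members and raised 0, where 12.9% of all genes were called, 6.23% higher and 6.71% lower, with a median of -0.022 for members and 0.003 for all genes. Beside RBM25, RBM5 and SRSF11, these were TRA2A, a splicing activator related to SR proteins (-0.24 ± 0.06, edgeR adjusted p = 0.00192), and SRSF4 (-0.19 ± 0.04, edgeR adjusted p = 0.00102). TRA2A and SRSF4 were also lower at 100 and 20 µg/mL and in part of the other groups, as the next comparisons give. At 100 µg/mL, 1 member (SRSF9) was higher and 3 (TRA2A, PTBP3 and SRSF4) lower, with 8.07% of all genes called, 3.83% higher and 4.24% lower. At 20 µg/mL, TRA2A and SRSF4 were lower, with 1.71% called, 1.26% higher and 0.446% lower. The library set term left 1 call at 100 µg/mL and 0 at 20 µg/mL. In the same order the counts were 1 and 0 without replicate 2 of the extract, 1 and 1 without its replicate 3, and 2 and 1 without vehicle replicate 2 or 3. At 20 µg/mL the count was 1 without vehicle replicate 1 and, without replicate 1 of the extract, it was 5. In the other lists, 12 of 31 SR-rich and intron-retaining genes were lower and 2 higher at 500 µg/mL against the vehicle, and 5 of 46 core spliceosome genes were higher and 1 lower. MBNL2, a muscleblind splicing regulator, changed by -0.42 ± 0.07 (edgeR adjusted p = 6.51e-05), and was also lower at 500 µg/mL of Astragali Radix (-0.39), Cnidii Rhizoma (-0.29), Sagunja-tang (-0.50) and Samul-tang (-0.48) against the same 3 vehicle libraries. Between rounds 6-2 and 6-3 and round 6-1 it changed by -0.21.

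Both formulae differed from the vehicle in 11 to 15 members at each dose, counts that depended on the libraries used. Sagunja-tang gave 7 members higher and 5 lower at 500 µg/mL (of all genes 20.2% called, 11.7% higher and 8.5% lower), 8 and 5 at 100 µg/mL (16.6% called, 9.35% and 7.23%), and 6 and 6 at 20 µg/mL (18.5% called, 9.68% and 8.85%). Samul-tang gave 6 and 5 at 500 µg/mL (18.5% called, 10.2% higher and 8.3% lower), 8 and 7 at 100 µg/mL (21.9% called, 12% and 9.93%), and 6 and 6 at 20 µg/mL (10.9% called, 5.84% and 5.1%). The median of the members lay between -0.019 and 0.033 in these 6 comparisons, and that of all genes between 0.001 and 0.005. All 6 share the vehicle libraries, so that an agreement between them is no separate evidence. With the library set as a term, described with the rounds, the counts were 1 to 4, and without vehicle replicate 3 they were 6 for Sagunja-tang 500, 3 for Samul-tang 500 and 2 for Samul-tang 20.

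SRRM1, a coactivator of splicing that bridges SR proteins, had 163.8, 168.5 and 155.8 CPM in Sagunja-tang at 500 µg/mL and 159.2, 163.4 and 163.3 CPM in Samul-tang at 500 µg/mL, against 194.3, 213.8 and 246.6 CPM in the vehicle. Neither formula overlapped the vehicle, whose own libraries spread widely. Over the 6 formula groups its log2 fold change ran from -0.46 to -0.35 (edgeR adjusted p = 0.00106 to 0.0174). TRA2A had 96.55, 101.5 and 101.5 CPM in Sagunja-tang at 500 µg/mL and 100.6, 103.6 and 101.4 CPM in Samul-tang at 500 µg/mL, against 117.6, 119.6 and 126.9 CPM in the vehicle. These groups did not overlap either. TRA2A was lower in all 6 groups, by -0.32 to -0.25 (edgeR adjusted p = 0.000196 to 0.00208), and so were SRSF4 (-0.23 to -0.17), HNRNPUL1, an hnRNP U-like protein (-0.21 to -0.16), and RBM5 (-0.20 to -0.12). Markers and base composition moved with these differences. CEACAM5 (-0.47 to -0.35), CDH1 (-0.24 to -0.17) and SERPINA1 (-0.42 to -0.30) were called lower and NEAT1 (0.32 to 0.49) higher in all 6 groups, and CD68 lower in 4 (-0.70 to -0.50). CD14, of the same leukocyte list as CD68, was called higher in Sagunja-tang at 100 µg/mL (0.40 ± 0.13, edgeR adjusted p = 0.0316). Summed marker levels in the formulae, against the vehicle, were 12200 to 13600 and 11100 to 12000 CPM for epithelial, 1410 to 1690 and 1430 to 1490 CPM for leukocyte, 331 to 404 and 437 to 460 CPM for hepatocyte, 23.1 to 29.5 and 26.4 to 30.7 CPM for endothelial, and 1.76 to 2.78 and 2.00 to 2.46 CPM for fibroblast markers. The slope of log2 deviations from the mean of all libraries on gene GC content, per 10 percentage points, was -0.0176 to 0.0499 in the formulae, against -0.0534 to -0.0369 in the vehicle. Among the sums, those of epithelial markers lay above the vehicle without overlap, although CEACAM5 and CDH1 of that list were lower. The part of any of these in the members' differences was not tested.

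SRSF9 had 133.5, 133.2 and 131.2 CPM in Sagunja-tang at 500 µg/mL and 137.8, 128.1 and 121.6 CPM in Samul-tang at 500 µg/mL, against 111.6, 108.2 and 96.5 CPM in the vehicle. Both groups lay above the vehicle. SRSF9 was called higher in 5 of the 6 groups, with log2 fold changes of 0.20 to 0.34 (edgeR adjusted p = 0.000932 to 0.0495), and stood at 0.16 in the remaining group, Sagunja-tang at 20 µg/mL. HNRNPA2B1, the most abundant member, had 1489, 1614 and 1589 CPM in Sagunja-tang at 500 µg/mL and 1631, 1642 and 1560 CPM in Samul-tang at 500 µg/mL, against 1434, 1392 and 1333 CPM in the vehicle. It was higher in all 6 groups, by 0.17 to 0.26 (edgeR adjusted p = 0.00218 to 0.0374). SRSF1 was called higher in 5 of the 6 (0.14 to 0.18), HNRNPM in 4 (0.18 to 0.22), SRSF11 in 4 (0.13 to 0.18), and SRSF5, SRSF7, HNRNPUL2, HNRNPH1 and SRPK2 in 3 each. SRPK2, at 0.14 to 0.21 where called, was the only kinase called against the vehicle in any of the 18 comparisons.

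Members also differed between rounds of the number 6, a comparison without formula or vehicle libraries. In the 18 libraries of Cinnamomi Cortex and Astragali Radix, with extract and dose in the fit, 4 members were higher and 13 lower in rounds 6-2 and 6-3 over round 6-1, and 36.1% of all genes were called, 20% higher and 16.1% lower. The median was -0.019 for members and 0.009 for all genes. SRRM1 changed by -0.23 ± 0.04 (edgeR adjusted p = 0.000371), with 159.1 to 194.9 CPM in rounds 6-2 and 6-3, against 196.6 to 232.5 CPM in round 6-1, which did not overlap. TRA2A changed by -0.13 ± 0.03 (edgeR adjusted p = 0.00148), SRSF9 by 0.12 ± 0.04 (edgeR adjusted p = 0.0145) and HNRNPA2B1 by 0.10 ± 0.03 (edgeR adjusted p = 0.0278). RBM25, CLK2, CLK1 and CLK4 were also lower in the later rounds, by -0.21, -0.17, -0.11 and -0.12. SRSF4 (-0.05) and RBM5 (0.01) were not called there, though both were lower in all 6 formula groups.

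**Figure D5:**
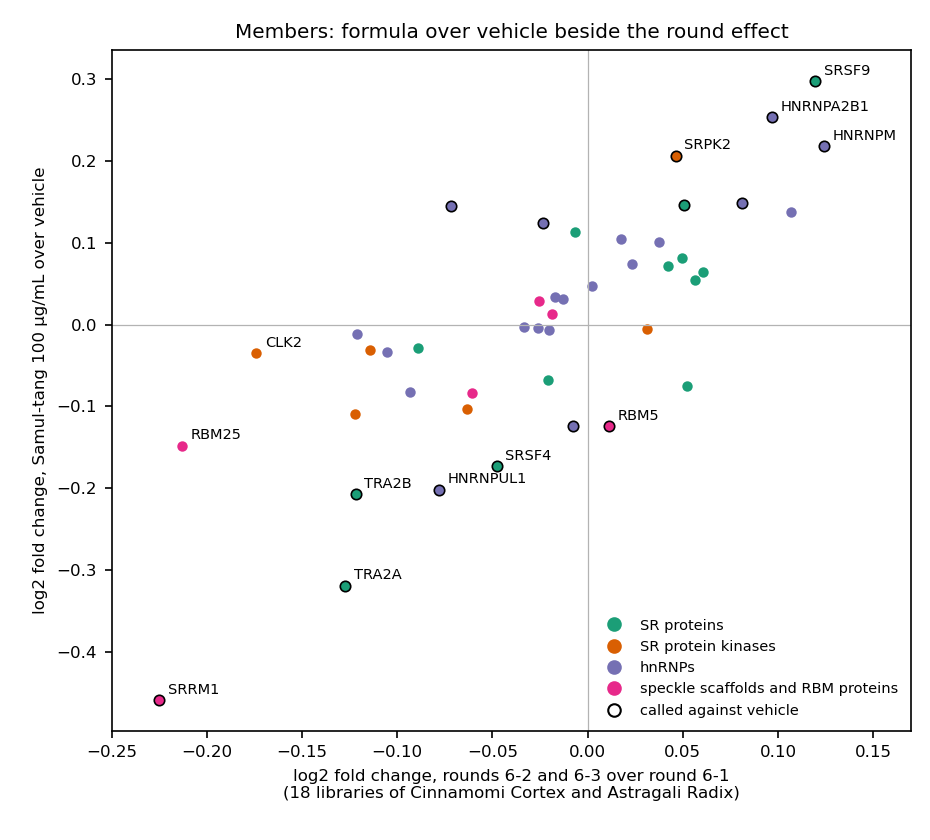
Log2 fold change of each member in Samul-tang at 100 µg/mL over the vehicle (y axis) beside that of rounds 6-2 and 6-3 over round 6-1 within Cinnamomi Cortex and Astragali Radix (x axis), coloured by role, with a black edge where the edgeR adjusted p against the vehicle was under 0.05. SRRM1 at -0.23 and -0.46 and SRSF9 at 0.12 and 0.30 lie at opposite corners, while RBM5 lies at 0.01 and -0.12.

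Over the 45 members, the round effect and the difference of each formula group from the vehicle correlated at Pearson's r of 0.64 to 0.77, and over 15594 genes at 0.51 to 0.57. The libraries of the rounds and those of the formulae and vehicle are distinct, but the points share depth, base composition and the set of libraries, so r is given as a description. With the library set as a term (rounds 6-2, 6-3 and number 7 against the rest), the number of members called fell to 4 in Sagunja-tang at 500 µg/mL and to 1 in each of the other 5 formula groups. The 4 were RBM5 (-0.21), SRSF4 (-0.18), SRSF5 (0.19) and HNRNPH1 (0.17), and the lone member of the others was HNRNPH1 each time. In Sagunja-tang at 500 µg/mL and Samul-tang at 500 and 20 µg/mL, HNRNPH1 had not been called without the term. None of the calls reported for Samul-tang at 500 and 20 µg/mL was kept. All vehicle libraries lie in 1 set and all formula libraries in the other, so for the formulae the set and the treatment cannot be told apart except through the round effect of the number 6. In Cinnamomi Cortex at 500 µg/mL against the vehicle the same 5 members were called with the term. RBM25 then stood at -0.35 (edgeR adjusted p = 4.99e-06) and SRSF11 at -0.27 (edgeR adjusted p = 4.31e-05). The term placed replicate 2 of this group with rounds 6-2 and 6-3, though on the first principal component it lay on the vehicle's side.

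HNRNPH1, which binds G-rich sequences and is uncertain relative to HNRNPH2, had 460.9 to 499.9 CPM (median 478.5) in the 18 libraries of the number 5 and 454.4 to 508.5 CPM (median 472.6) in the 18 formula libraries, against 435.3, 443.2 and 443.3 CPM in the vehicle, so that every library of both numbers lay above the vehicle. Cinnamomi Cortex at 500 µg/mL had 446.1, 432.5 and 416.7 CPM, which overlapped the vehicle. HNRNPH1 was called higher in 6 of 18 comparisons with the vehicle, at 0.11 to 0.15, and in all of them the same 3 libraries are the comparator. Cnidii Rhizoma at 500 µg/mL (0.13 ± 0.03, edgeR adjusted p = 0.0468) and Rehmanniae Radix Preparata at 500 µg/mL (0.14 ± 0.03, edgeR adjusted p = 0.0418) had HNRNPH1 as their only call among the members, where 1.48% (0.734% higher, 0.746% lower) and 0.636% (0.403% higher, 0.232% lower) of all genes were called. Both calls were lost with RLE factors (adjusted p = 0.0574 and 0.0593), with no filter on low counts and without any 1 replicate, and held in DESeq2 and with the library set term.

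The other plants moved few members against the vehicle. Cnidii Rhizoma gave 0 calls at 100 µg/mL (0.147% of all genes) and at 20 µg/mL (0.293%), and Rehmanniae Radix Preparata 0 at 100 µg/mL (0.208%) and at 20 µg/mL (0.434%). At an unadjusted p under 0.05 edgeR counted 6, 4, 6 and 5 members there, and DESeq2 called 0, 0, 1 and 0. CLK2 had 39.20 to 48.85 CPM in the libraries of the number 5, against 36.20 to 39.99 CPM in the vehicle. The ranges overlapped, and its log2 fold change reached 0.28 in Rehmanniae Radix Preparata at 20 µg/mL without a call. Astragali Radix at 500 µg/mL gave 2 members higher (SRSF1 at 0.15 and HNRNPH1 at 0.12) and 2 lower (SRSF4 at -0.17 and PTBP3 at -0.14), with 3.58% of all genes called, 2.12% higher and 1.46% lower. At 100 µg/mL TRA2A (-0.20) and SRSF4 (-0.15) were lower (2.51% called, 1.61% higher and 0.899% lower), and at 20 µg/mL SRSF4 (-0.18) was lower (1.39% called, 0.997% higher and 0.391% lower). The library set term gave 1 call at 500, 0 at 100 and 1 at 20 µg/mL, where HNRNPH1 was called in place of SRSF4. The counts in that order were 0, 0 and 0 without vehicle replicate 2 or replicate 3 of the extract, 1, 0 and 0 without its replicate 2, 2, 1 and 0 without vehicle replicate 1, and 1, 0 and 1 without vehicle replicate 3. Without replicate 1 of the extract they were 7, 3 and 7. With no filter on low counts, none of the 2 calls at 500 µg/mL was among the 4. Between rounds of the number 5, 2 members were higher and 2 lower (6.3% called, 3.14% higher and 3.15% lower), led by CLK2 at 0.14 ± 0.03 (edgeR adjusted p = 0.00666). Between rounds of the number 7, 1 member, SRSF10, was higher at 0.13 (3.19% called, 1.31% higher and 1.88% lower).

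Apart from Cinnamomi Cortex, no replicated extract had a member called between its top and its lowest dose. The count was 0 of 45 for Cnidii Rhizoma (0.428% of all genes called), Rehmanniae Radix Preparata (0.177%), Astragali Radix (0.0734%), Sagunja-tang (0.00611%) and Samul-tang (0.141%) in edgeR, and also 0 in DESeq2, with 2, 6, 2, 6 and 2 members at an unadjusted p under 0.05 in edgeR. Over the CLK kinases, the 95% intervals of all 6 dose comparisons lay between -0.27 and 0.30. The members' median in these 5 comparisons ran from 0.007 to 0.029, with -0.002 to 0.002 for all genes. Cnidii Rhizoma and Rehmanniae Radix Preparata at 500 µg/mL gave no call among the members (0 called, 0.147% of all genes, 0 at an unadjusted p under 0.05 and 0 in DESeq2). The same held for Sagunja-tang and Samul-tang at 500 µg/mL (0 called, 0.318% of all genes, 1 at an unadjusted p under 0.05 and 0 in DESeq2).

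Paeoniae Radix had 1 library per dose and no test per dose, and its doses were not pooled. At 500 µg/mL 44 of 45 members lay within the range of the 57 replicated libraries and at 100 µg/mL all 45, where 1.86% and 0.96% of all genes lay outside. At 20 µg/mL 14 members lay outside, 11 above and 3 below, where 16.1% of all genes did so. SRSF3 had 411.3 CPM in that library and SRSF9 had 155.8 CPM, the highest of all 60 libraries, while SRRM2 had 915.3 CPM and PTBP1 496.9 CPM, the lowest. SRSF11 had 205.4 CPM, the highest of all 60 libraries. That library also had the lowest slope of counts on GC content of all 60, and what part this had in its values was not tested.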

How the data were processed

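Messenger RNA of HT29 cells was sequenced in 60 libraries (100-base reads, RNA integrity number above 7, per the labels' protocols). The authors deposited expected counts per gene, estimated counts that need not be whole and are not scaled. The tools named in the submitters' processing notes, with no role given, are STAR 2.7.3a and RSEM 1.3.3 beside Trim Galore 0.6.5 and FastQC 0.11.9, and the build is GRCh38 (hg38). No source used here gives the annotation release or the strandedness used in counting, so overlapping and antisense genes are uncertain. Counts were rounded (8.8% were not whole within 1e-06). Columns of 213 other libraries were not used.

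Groups came from the sample labels. edgeR 4.0.16 (R 4.3.3) was fitted to 57 libraries with TMM factors (0.938 to 1.04), 1 coefficient per group and filterByExpr at a minimum count of 10. Its quasi-likelihood test was adjusted by Benjamini-Hochberg over 16357 genes. The common biological coefficient of variation was 0.0571. Alternatives were RLE factors, DESeq2 1.42.0, no filter, a library set term, a replicate block and leaving out replicates. Without Cinnamomi Cortex 500 replicate 2 alone was chosen after seeing the data. Chi-square per gene between replicates was 2.52 to 29.2 times that of counting error over 57 pairs. The script was tested on simulated data.

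Members and lists were chosen with earlier results of these data known. Text names up to 6 called members per direction and comparison, a panel of 14 members, and up to 4 called genes per other list. Exceptions, chosen after their values were seen, are the epithelial markers KRT20 and CEACAM5, CD14, TEK, CLK2, RBM6 and the members named for Paeoniae Radix. A gene that this rule names is not reported here.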

Additional observations from a re-analysis of the deposited data

Results flagged for a closer look

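RBM25 is set out because its dose effect differed between the extracts in the direct test of that difference, at -0.39 on the log2 scale (Cinnamomi Cortex minus Astragali Radix, edgeR adjusted p = 0.0238). In every round, 500 µg/mL was below 20 µg/mL in Cinnamomi Cortex (3 of 3), and in 2 of 3 rounds in Astragali Radix. SRSF11 is set out for the same reason, at -0.25 (edgeR adjusted p = 0.0138). Its level at 500 µg/mL was lower in 3 of 3 rounds of Cinnamomi Cortex and in 2 of 3 rounds of Astragali Radix (log2 ratios of -0.13, -0.02 and 0.03). Over the alternatives, the difference was called in 5 of 8 for each gene, with adjusted p from 0.000109 to 0.28 for RBM25 and from 0.00165 to 0.321 for SRSF11.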

How the results depend on the processing

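RBM25 and SRSF11 at 500 over 20 µg/mL of Cinnamomi Cortex kept direction and call in all 8 alternatives (-0.46 to -0.32 and -0.36 to -0.24), and against the vehicle in all 12. Of 287 alternative counts of members called, 189 lay within 1.5 times the count reported and 98 did not. Of 1275 alternative values of single members, 920 kept direction and call, 346 kept the direction only, 1 gained a call and 8 changed sign. The causes were not tested.

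With the library set term, counts against the vehicle became 2 for Cnidii Rhizoma 500 (1 reported), 1 for Rehmanniae Radix Preparata 100 (0) and 20 (0), 1 for Cinnamomi Cortex 100 (4), 0 for Cinnamomi Cortex 20 (2), 1 for Astragali Radix 500 (4), 0 for Astragali Radix 100 (2), 4 for Sagunja-tang 500 (12), 1 for Sagunja-tang 100 (13) and 20 (12), and 1 for Samul-tang 500 (11), 100 (15) and 20 (12). With RLE factors they were 0 for Cnidii Rhizoma 500, 0 for Rehmanniae Radix Preparata 500 (1 reported) and 2 for Astragali Radix 500. With no filter they were 0, 0 and 2 in the same groups and 1 for Rehmanniae Radix Preparata 20. No filter also gave 2 for Cinnamomi Cortex 500 over 20 (5 reported), 2 for Cinnamomi Cortex over Astragali Radix at 500 (7), 1 for the difference of their dose effects (2), 8 between rounds of number 5 (4) and 3 between rounds of number 7 (1). DESeq2 gave 2 for Cnidii Rhizoma 500, 1 for Rehmanniae Radix Preparata 100, and 7 and 5 between rounds of numbers 5 and 7.

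Leaving out 1 replicate at a time against the vehicle gave 0 for Cnidii Rhizoma 500 and Rehmanniae Radix Preparata 500, 1 to 6 for Cinnamomi Cortex 100, 0 to 5 for Cinnamomi Cortex 20, 0 to 7 for Astragali Radix 500, 0 to 3 at 100 and 0 to 7 at 20. It gave 6 to 15, 5 to 14 and 4 to 11 for Sagunja-tang at 500, 100 and 20, and 3 to 11, 8 to 17 and 2 to 11 for Samul-tang. It gave 2 to 3 for Cinnamomi Cortex 500 over 20, and 0 to 4, 9 to 17 and 0 to 2 between rounds of numbers 5, 6 and 7. Leaving out Cinnamomi Cortex 500 replicate 2 alone, chosen after seeing the data, gave 4 for 500 over 20. Without replicate 1, 2 or 3 of both extracts, Cinnamomi Cortex over Astragali Radix gave 4, 4 and 2, and the difference of dose effects 1, 1 and 0.

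In Cinnamomi Cortex 500 over 20, values near 0 changed sign when 1 replicate was left out, without replicate 3 for CLK1 (-0.12 to 0.014), CLK4 (-0.11 to 0.018), SRSF3 (-0.0011 to 0.031), SRSF7 (-0.016 to 0.044) and HNRNPA1 (-0.041 to 0.050), and without replicate 2 for SON (-0.0071 to 0.027) and TRA2A (-0.022 to 0.057).

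Replicate numbers were not taken as pairs, since in no comparison did every same-numbered pair correlate over 0.1. Within number 6, where rounds differed, 30 of 45 pairs did, against 4 of 45 in each of numbers 5 and 7. With the replicate block the counts were 2 for Cnidii Rhizoma 500, 1 for Rehmanniae Radix Preparata 100 and 7 for Cinnamomi Cortex 500 over 20, among them all 5 reported and SRRM2 (-0.13, edgeR adjusted p = 0.0415), where HNRNPA1 stood at -0.0017.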
